A study of Mus musculus with 4 samples.

Results

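The genes of the smooth muscle type cytoskeleton were followed in MC3T3-E1 cells, a mouse osteoblastic line from calvaria, after inhibition of glucosylceramide synthase. The 10 genes are Acta2, Actg2, Tagln, Cnn1, Cnn2, Myl9, Tpm1, Tpm2, Cald1 and Tnnt2. They were chosen by name, with earlier results of these data known, and matched to the arrays through RefSeq accessions. All 10 had a probe, among 22911 genes named on the arrays, and together they had 17 probes, all well above background on all 4 arrays. The groups were untreated Control cells and cells given Miglustat at 50 µM, D-PDMP at 10 µM or D-PPMP at 1.0 µM, with 1 array each. The inhibitors were given for 4 days, and the cells were then replated and cultured for 24 h before RNA was taken. Miglustat is an iminosugar, whereas D-PDMP and D-PPMP are ceramide analogues that share a morpholino ring and differ in the length of their fatty acyl chain. All groups are 1 cell line, and no other genotype was used.

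Smooth muscle actin filaments are built from actin and covered by tropomyosin, and they are pulled by myosin II, whose regulatory light chain switches the motor on. Calponin and caldesmon bind the filament and hold the motor back, and transgelin cross-links actin. Fibroblasts and osteoblast precursors that spread, carry load or answer TGF-beta also make these proteins and assemble them into stress fibres. Many of the genes are driven by serum response factor (SRF) and its MRTF coactivators, which are released to the nucleus when free actin is used up. SRF binds a sequence called the CArG box, and TEAD factors bind the MCAT motif.

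Promoter sequence shows where such letters lie in the genes whose values are given afterwards. RefSeq windows of build GRCm38.p6, from 250 bases before to 50 bases after a transcription start, were found for 8 of the 10 genes (10 windows, since Cald1 and Tnnt2 have more than one start), not for Actg2 and Tagln. A CArG box was present in 2 of these 10 windows, those of Myl9 and Cnn2, against 1.63% of all 32851 windows. A CArG-like match with a single C or G among its central bases was present in the windows of Acta2 and Myl9, against 8.5% of all windows. The MCAT motif, searched as CATTCC on both strands, was present in 4 windows (Acta2, Tpm1, Cald1 and Tnnt2), against 14.7% of all windows. The stretches below are those of the genes on which the results turn, each read 5′ to 3′ on the gene's strand, with a CArG box, a CArG-like match or an MCAT motif in capitals.
Acta2, chr19:34255438-34255467, minus strand: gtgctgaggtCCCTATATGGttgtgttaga
Acta2, chr19:34255388-34255417, minus strand: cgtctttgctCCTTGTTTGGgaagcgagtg
Myl9, chr2:156775298-156775379, plus strand: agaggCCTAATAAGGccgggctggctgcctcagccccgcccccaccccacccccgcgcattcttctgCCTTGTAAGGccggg
Cnn2, chr10:79988499-79988598, plus strand: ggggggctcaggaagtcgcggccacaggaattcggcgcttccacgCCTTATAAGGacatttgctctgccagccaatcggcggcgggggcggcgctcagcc
Cnn1, chr9:22099153-22099220, plus strand: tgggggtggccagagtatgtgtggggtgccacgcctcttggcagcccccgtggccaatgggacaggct
Tnnt2, chr1:135836262-135836314, plus strand: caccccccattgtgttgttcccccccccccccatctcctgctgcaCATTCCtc
The printed Acta2 matches begin 84 and 34 bases before the start site, and the Acta2 MCAT motif, not printed, begins 146 before it. The Myl9 matches begin 161 and 99 bases before the start site, that of Cnn2 56, and the MCAT motif of Tnnt2 27. None of the searched motifs is in the Cnn1 window, which says only that these letters are not there. A match is a description of sequence and not a bound site.

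A level is the log2 signal of a probe minus the 75th percentile of its array, and a ratio is a difference of 2 levels. With 1 array per group there is no spread between replicates, no test and no p-value. Precision within an array is described by 2 figures. The scanner software gives an error of 0.20 to 0.21 for the log2 ratios of these probes. That error is nearly the same for dim and bright probes, so it is not a spread measured on them. Probes spotted 10 times on each array give an SD of 0.073 to 0.079 for a log2 ratio to Control. A ratio inside the scanner's error, such as 0.18 for Tagln with Miglustat, can thus exceed this repeat-spot SD. Neither figure covers differences between cultures. The 4 arrays lay on 1 slide in 4 positions, and what position and treatment each contribute cannot be told apart. The share of probes well above background was 57.4% in Control and 60.2% with Miglustat, then 60.8% with D-PDMP and 62.4% with D-PPMP, and no spot was saturated. In bulk RNA, fewer cells with a transcript and less transcript per cell cannot be told apart.

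The actin genes were close to Control with every inhibitor and highest with Miglustat. Acta2, alpha smooth muscle actin and the usual marker of myofibroblasts, had levels of 8.89 in Control and 8.99 with Miglustat, then 8.84 with D-PDMP and 8.81 with D-PPMP, on its brightest probe. Its ratios to Control were 0.10, -0.05 and -0.08, each inside the scanner's error, and the last 2 changed sign under another scaling. On its second probe the ratios were 0.10, 0.00 and 0.04. The third Acta2 probe read 4.44, 4.77, 4.48 and 4.49, so that Miglustat was 1.26-fold above Control on this probe and D-PDMP and D-PPMP were within 0.06 of it. All 3 probes were therefore highest on the Miglustat array, by unequal amounts. Actg2, the enteric gamma smooth muscle actin, had levels of 6.62, 6.80, 6.56 and 6.63 in the same order of arrays. Its Miglustat ratio of 0.18 was just inside the scanner's error, and its ratios with D-PDMP (-0.06) and D-PPMP (0.01, of either sign depending on the scaling) were near 0. Acta2 and Actg2 encode nearly identical proteins, and how far their probes detect each other's RNA was not tested.

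Among the proteins that bind the filament, calponin 1 stood apart from the others. Cnn1 encodes the calponin of differentiated smooth muscle. Its brightest probe had levels of 2.86 in Control and 3.46 with Miglustat, then 2.43 with D-PDMP and 2.33 with D-PPMP. Miglustat thus lay above Control, and both ceramide analogues lay below it. The ratios were 0.60, or 1.52-fold higher, with Miglustat, -0.43, or 1.35-fold lower, with D-PDMP and -0.53, or 1.45-fold lower, with D-PPMP, each beyond the scanner's error of 0.20. With Miglustat, 1.41% of all 14171 genes measured had a higher ratio. With D-PDMP 97.4% of 14154 genes and with D-PPMP 98.5% of 14200 genes had a higher ratio than Cnn1. The dimmer Cnn1 probe ordered the arrays the same way against Control, with ratios of 0.49, -0.64 and -0.33. It put D-PDMP below D-PPMP, whereas the brighter probe put D-PPMP slightly lower.

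Cnn2, the calponin found in many nonmuscle cells, did not share the size of these differences. It read 5.81, 5.89, 5.71 and 5.77, with ratios of 0.08, -0.09 and -0.03, all inside the scanner's error. Tagln, transgelin or SM22, an early smooth muscle protein that binds actin, read 7.67, 7.85, 7.54 and 7.54. Both ceramide analogues were about equal here and below Control, and Miglustat was above it. The Tagln ratios were 0.18, -0.13 and -0.12, inside the scanner's error, and kept their signs under all alternatives run. Cald1, caldesmon, read 7.61, 7.67, 7.58 and 7.51 on its brightest probe, with ratios of 0.06, -0.03 and -0.11. On its other probe the ratios were -0.03, 0.13 and -0.26, so the Cald1 probes disagreed in sign with Miglustat and with D-PDMP and both lay below Control with D-PPMP.

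**Figure D1:**
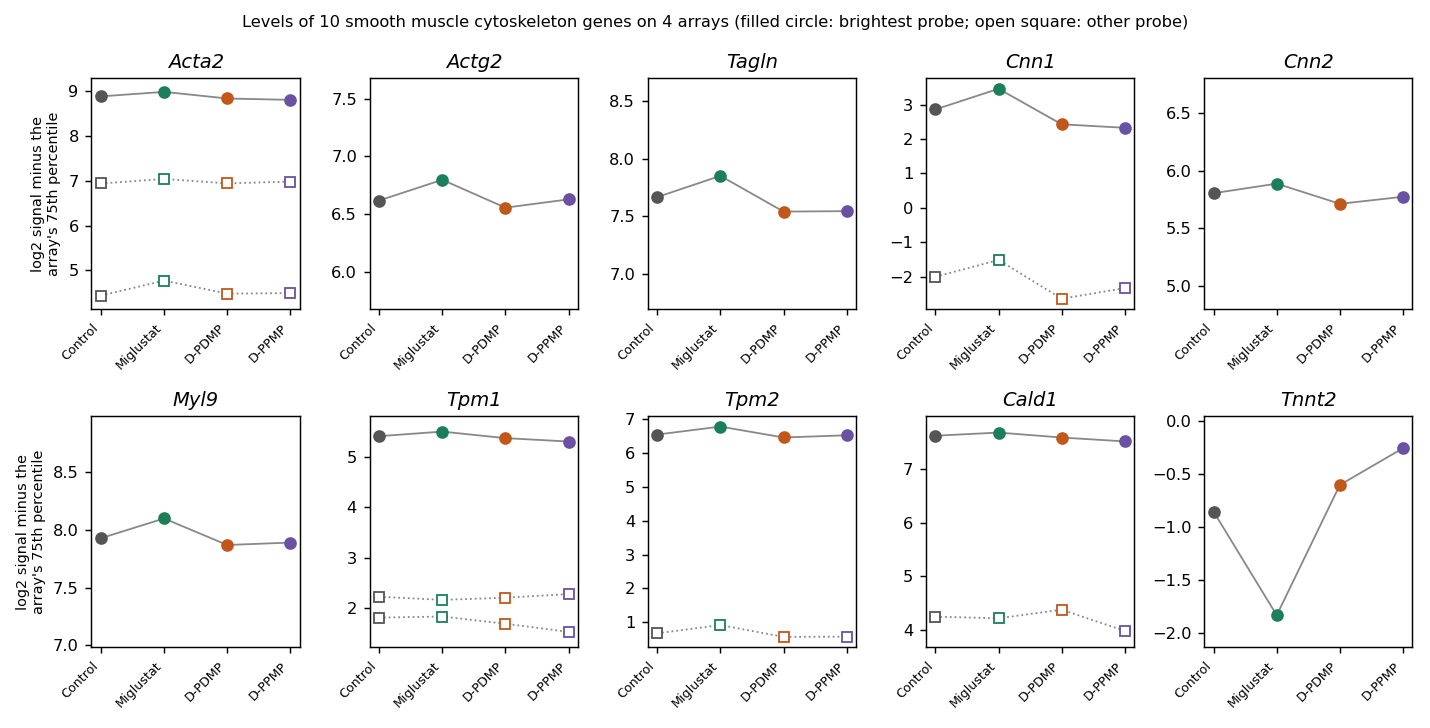
Level of each probe (log2 signal minus the array's 75th percentile, vertical axis) on the 4 arrays (horizontal axis) in 1 panel per gene. Each axis has its own range. Filled circles are the brightest probe of a gene, open squares its other probes, and lines join the points of 1 probe. The brightest probe peaks on the Miglustat array in 9 panels, while Tnnt2 is lowest there, at -1.83.

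On their brightest probes the tropomyosins and the light chain were also highest with Miglustat, by small amounts, and the order of the other arrays varied. Tpm2, beta-tropomyosin, read 6.55, 6.79, 6.46 and 6.53 on its brightest probe and 0.67, 0.91, 0.56 and 0.57 on its other. Miglustat was the highest array on both. Their Miglustat ratios of 0.24 each were just beyond the scanner's error and those with D-PDMP were -0.09 and -0.11. The D-PPMP ratio was -0.02 on the brightest Tpm2 probe, positive under some scalings, and -0.10 on the other. Tpm1, alpha-tropomyosin, gives many spliced transcripts, and its 3 probes are listed for different ones. The brightest read 5.40, 5.49, 5.36 and 5.30, with ratios of 0.09, -0.04 and -0.11. A second Tpm1 probe had ratios of 0.02, -0.12 and -0.28, the last beyond the scanner's error. The third, at -0.06, -0.02 and 0.05, was the only Tpm1 probe that was lowest with Miglustat. Myl9, the regulatory light chain of smooth muscle and nonmuscle myosin II, read 7.93, 8.10, 7.87 and 7.89. Its ratios were 0.17, -0.06 and -0.04, and the last was of either sign depending on the scaling.

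Tnnt2 lay on the other side of Control from Cnn1 with every inhibitor. It encodes cardiac troponin T, which ties the calcium switch of striated muscle to tropomyosin and has no part in smooth muscle filaments. Its single probe read -0.85 in Control and -1.83 with Miglustat, then -0.60 with D-PDMP and -0.26 with D-PPMP. The Miglustat array was the lowest and the D-PPMP array the highest. Miglustat was 1.97-fold below Control, a ratio of -0.98 with an error of 0.21, and just short of the 2-fold limit. Only 25 of the 14171 genes measured had a lower ratio. With D-PDMP the ratio was 0.25, and with D-PPMP it was 0.60, or 1.51-fold higher, with 2.13% of genes higher still. With normexp background correction, which pulls dim signals together, the Miglustat ratio was -0.56 and the D-PPMP ratio 0.47. Tnnt2 was measured by 1 spot per array, at signals of 101.0, 53.6, 124.7 and 158.0.

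**Figure D2:**
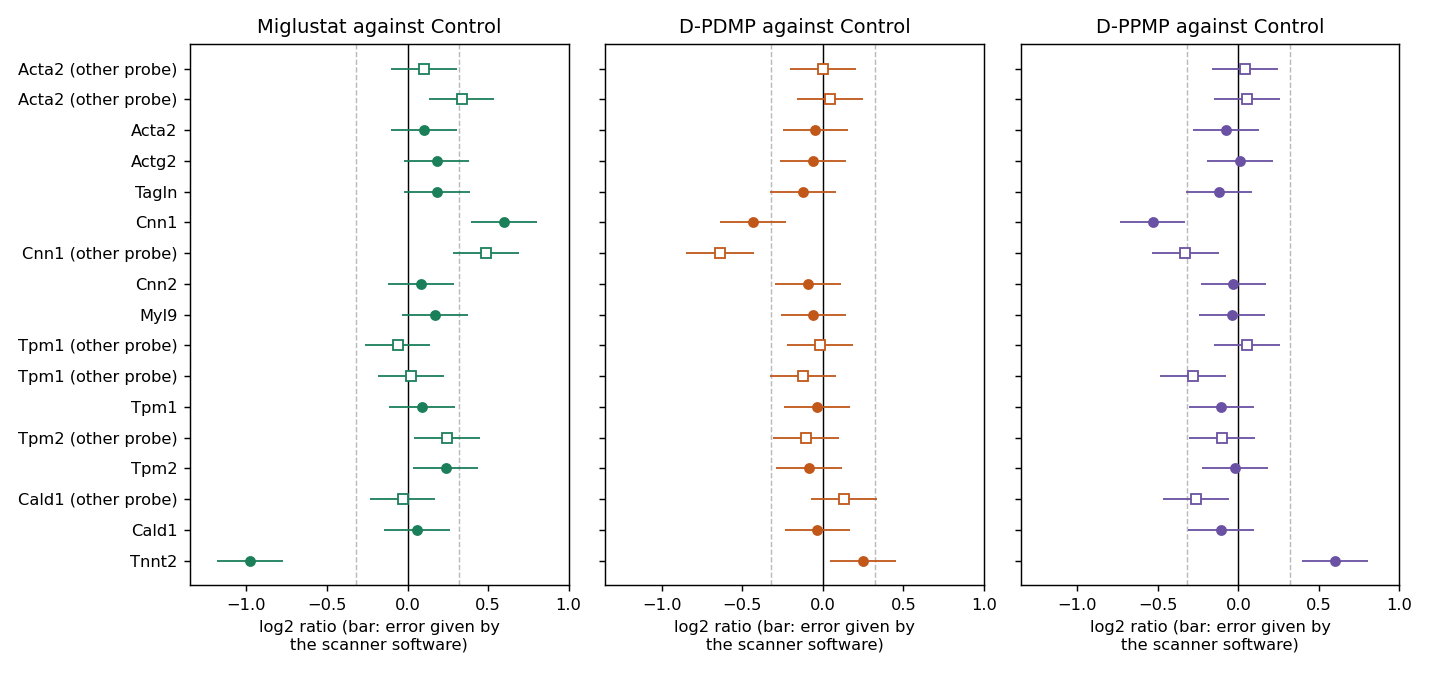
Log2 ratio over Control (horizontal axis) for each of the 17 probes (vertical axis), in 1 panel per inhibitor. Circles are brightest probes, squares other probes, bars the error given by the scanner software, and dashed lines a log2 ratio of 0.32 on each side. Both Cnn1 probes lie to the right of 0 with Miglustat and to the left with D-PDMP and D-PPMP, and Tnnt2 lies on the other side each time.

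Counted together, 9 of the 10 genes were above Control with Miglustat, all but Tnnt2, where 44.5% of the 14171 genes measured were above Control. The median ratio of the 10 was 0.14, against -0.02 for all genes. Since the 10 were chosen with earlier results of these data known, such shares of all genes give a setting and not a test. Past a log2 ratio of 0.32 in size, the smaller of the 2 limits used, were Cnn1 on the higher side (5.77% of all genes) and Tnnt2 on the lower side (4.59%), and none was past 2-fold (0.212% higher and 0.176% lower). Of the 17 probes 14 were above Control, and 6 of the 17 ratios exceeded the scanner's error: both Cnn1 probes, both Tpm2 probes, 1 Acta2 probe and Tnnt2. The shares of all probes above Control or past this error were not computed, so these 2 counts have no background beside them. The count of 9 was the same under all 7 other ways of processing that kept all 10 genes. At a mean level of at least 5 there were 8 of the genes, and all 8 were above Control. Of the 1176 genes at such levels, a limit chosen after the data were seen, 32.7% were above Control and their median ratio was -0.04.

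With D-PDMP, 9 of the 10 genes were below Control, all but Tnnt2, where 50.4% of 14154 genes were below. The median was -0.06, against 0.00 for all genes. Cnn1 was the only gene past 0.32 (4.80% of all genes lower, 4.91% higher), and none was past 2-fold (0.155% higher and 0.170% lower). Only both Cnn1 probes and Tnnt2 exceeded the scanner's error, and the share of all probes past it was not computed. Under quantile normalization Acta2 moved above Control, and with the mean of a gene's probes Cald1 did, leaving 8 genes below. The 8 genes at a level of at least 5 were all below Control, as were 54.0% of genes at such levels.

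With D-PPMP, 8 of the 10 genes were below Control, where 51.5% of 14200 genes were below. The exceptions were Actg2 and Tnnt2. This count depends on the scaling: under quantile and under cyclic loess normalization 5 genes were above Control. Cnn1, Tagln, Tpm1 and Cald1 were below Control under every alternative run. At a level of at least 5, 7 of 8 were below Control, against 66.9% of genes at such levels. The median of the 10 was -0.06, against -0.01 for all genes, and 0.01 under quantile normalization. Past 0.32 were Tnnt2 on the higher side (7.54% of all genes) and Cnn1 on the lower side (5.23%), and none was past 2-fold (0.303% higher and 0.204% lower). Of the 17 probe ratios 5 exceeded the scanner's error: both Cnn1 probes, 1 Tpm1 probe, 1 Cald1 probe and Tnnt2. The share of all probes past this error was not computed, so this count has no background beside it. The 3 ratios to Control share the Control array, so their agreement or opposition is not independent.

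**Figure D3:**
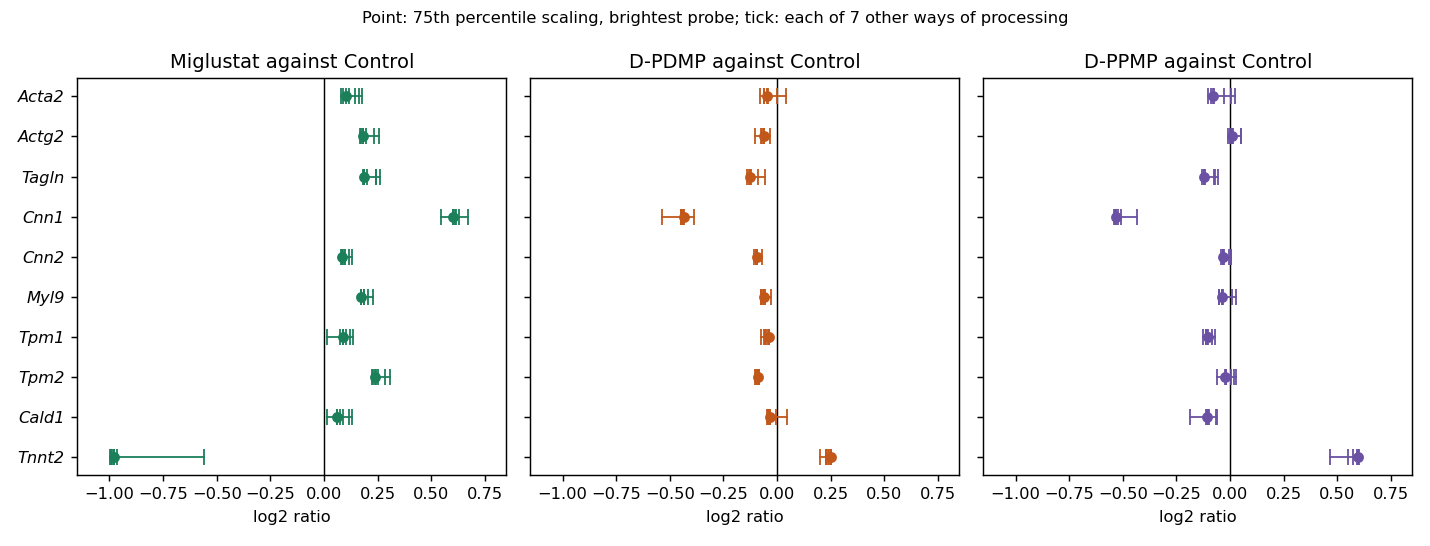
Log2 ratio over Control (horizontal axis) of the 10 genes (vertical axis) for each inhibitor. The point is the value reported, each tick the value under another way of processing, and the line their range. The Miglustat ranges stay on 1 side of 0 for all 10 genes, whereas with D-PDMP those of Acta2 and Cald1 and with D-PPMP those of Acta2, Actg2, Cnn2, Myl9 and Tpm2 cross it.

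The Miglustat array was the highest of all 4 for 9 of the 10 genes, or 8 with the mean of a gene's probes. Among all 14003 genes measured on every array, 24.9% were highest on that array, and among the 1176 genes at a level of at least 5 the share was 21.6%. The inhibitor arrays were then set directly against each other, without the Control array. The doses differ (50, 10 and 1.0 µM), so the values stand side by side and say nothing of potency. D-PDMP was below Miglustat for 9 of 10 genes (45.1% of all genes), with a median ratio of -0.20 against 0.02 for all genes. D-PPMP was below Miglustat for the same 9 genes (46.4% of all genes), with a median of -0.19 against 0.01. Of genes at a level of at least 5, 37.4% and 50.8% were below Miglustat.

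Cnn1 and Tnnt2 were the members past 2-fold between inhibitors. Cnn1 was 2.05-fold lower with D-PDMP than with Miglustat (0.396% of all genes at least 2-fold lower) and 2.20-fold lower with D-PPMP (0.543%). Its dimmer probe gave 2.18-fold and 1.76-fold lower. Tnnt2 was 2.35-fold higher with D-PDMP than with Miglustat (0.326% of all genes at least 2-fold higher) and 2.98-fold higher with D-PPMP (0.461%). After these, the lowest ratios of D-PDMP to Miglustat were those of Tpm2 at -0.32 and Tagln at -0.31. Tagln was also at -0.31 with D-PPMP, where Tpm2 was at -0.26. With normexp the Tnnt2 ratios to Miglustat were 0.76 and 1.03, so the D-PDMP one was then under 2-fold, and with the mean of its probes Cnn1 was at -0.98 with D-PPMP.

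D-PDMP and D-PPMP, which differ in their acyl chain and were used at different doses, were close to each other for most of the 10 genes. D-PPMP was above D-PDMP for 6 genes (45.7% of all genes), with a median ratio of 0.01, and the count ran from 5 to 8 under other processing. Ratios of brightest probes ran from -0.10 for Cnn1 to 0.35 for Tnnt2, the only one past 0.32 (5.35% of all genes higher). The other Cald1 probe, at -0.39, and the dimmer Cnn1 probe, at 0.31, were the widest of the rest. With 1 array each, values this close do not show that both compounds act alike.

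**Figure D4:**
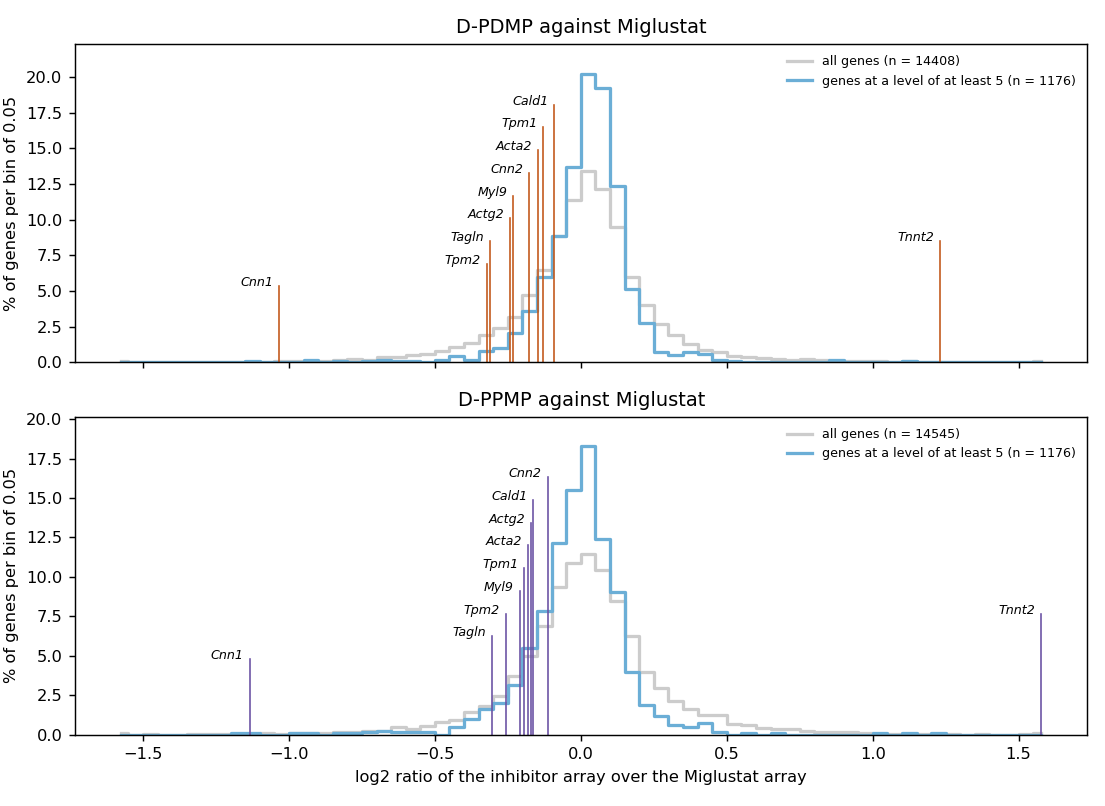
Distribution of log2 ratios over Miglustat (horizontal axis, bins of 0.05) as a percentage of genes (vertical axis) for D-PDMP (top) and D-PPMP (bottom). Grey lines are all genes measured on both arrays, blue lines those at a level of at least 5, and vertical lines, whose heights carry no value, the 10 genes. The lines of 9 genes lie left of 0, with Cnn1 at -1.03 and -1.13, and Tnnt2 lies far to the right, at 1.23 and 1.58.

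Related genes were read from 4 lists, chosen with earlier results of these data known. A list of smooth muscle and myofibroblast genes outside the 10 holds cytoskeleton genes, but also integrin chains and an amine oxidase. Of its genes 29 were measured. Of these, 24 were above Control with Miglustat (44.5% of all genes), and the median was 0.15. Past 0.32, 8 were higher (5.77% of all genes) and 1 was lower (4.59%). With D-PDMP 12 and with D-PPMP 14 of the 29 were above Control (49.6% and 48.5% of all genes), with medians of 0.00 each. With each of these compounds 1 was higher past 0.32 (4.91% and 7.54% of all genes) and 2 were lower (4.80% and 5.23%). Itga8, the integrin alpha 8 chain of smooth muscle and myofibroblasts, was at 1.81 with Miglustat, and at 0.01 and 0.10 with D-PDMP and D-PPMP, both of either sign by scaling. With normexp the Miglustat ratio of Itga8 was 0.68, under 2-fold. Aoc3, a vascular amine oxidase of smooth muscle, was at 0.62, 0.00 (of either sign) and -0.07. Fblim1, the filamin-binding protein migfilin, ran the other way at -1.10, 0.33 and 0.34, at a low signal, and with normexp its Miglustat ratio was -0.34. The other Fblim1 probe was not well above background.

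Of 15 measured genes for nonmuscle actins, myosins, tropomyosins and their partners, 6 lay above Control on the Miglustat array and 5 on each of the ceramide analogue arrays. Of all genes, 44.5%, 49.6% and 48.5% lay above Control on these arrays. None of the 15 was past 0.32 with any inhibitor on its brightest probe. Their medians were -0.01, -0.01 and -0.04, and the first and last changed sign under another scaling. The genes of this list farthest from Control were Myl12b, a nonmuscle myosin regulatory light chain, at -0.29, 0.07 and 0.03, the last of either sign (-0.33, -0.02 and -0.12 on its other probe), and Cnn3, the acidic calponin, at 0.20, 0.08 and 0.13. All 3 calponins were thus above Control with Miglustat, whereas with the ceramide analogues Cnn1 was below it, Cnn3 above it, and Cnn2 below it except with D-PPMP under normexp and cyclic loess.

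Genes of the sarcomere, to which Tnnt2 belongs, were mostly dim. Of 25 listed, 15, 16 and 16 were measured against Control, and 10, 7 and 10 of them were above it, against 44.5%, 49.6% and 48.5% of all genes. Their medians were 0.19, -0.05 and 0.02. The D-PPMP sign depends on the scaling, and the Miglustat median was 0.02 with normexp. Past 0.32, 3 were higher with each inhibitor (5.77%, 4.91% and 7.54% of all genes), and 0, 1 and 2 were lower (4.59%, 4.80% and 5.23%). None was past 2-fold. Tnnt1, the slow skeletal troponin T, was at 0.65, -0.12 and 0.01 on its brightest probe, the last of either sign, and at 0.30, -0.33 and 0.19 on its other. Tcap, a titin-binding protein, was at 0.43, 0.56 and 0.88, Tnnc1, the cardiac and slow troponin C, at 0.22, 0.64 and 0.22, and Myh7, the slow myosin heavy chain, at 0.39, 0.16 and 0.62, where the D-PDMP value was of either sign. None of these 4 shared the order of arrays seen for Tnnt2. Myh6, a dimmer gene of this list, had that order, at -0.60, 0.13 and 0.35. It was not well above background on the Miglustat array, so its Miglustat ratio does not count as measured.

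Of the genes for SRF and its coactivators, Srf was at 0.05, 0.14 and 0.26. Mrtfa was at 0.30, 0.06 and 0.03, of either sign with the ceramide analogues, and its other probe was at 0.25, -0.12 and 0.15. Mrtfb was at -0.03, 0.00 and 0.06, each of either sign depending on the processing. Its 3 other probes gave 0.08, -0.04 and 0.80 with Miglustat. Myocd, myocardin, the SRF coactivator of smooth muscle and heart, was not well above background on any array. Ppp1r12b, a targeting subunit of myosin phosphatase, was at 0.56, 0.47 and 0.41.

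Of 22 measured genes induced by TGF-beta or YAP, 16 were above Control with Miglustat (44.5% of all genes). On the higher side 9 were past 0.32 and on the lower side 2, against 5.77% and 4.59% of all genes, and the median was 0.30, or between 0.25 and 0.33 over the other scalings. With D-PDMP and D-PPMP 10 and 9 of 22 were above Control (49.6% and 48.5% of all genes), with medians of -0.01 and -0.07. Past 0.32, 4 were higher (4.91% of all genes) and none lower (4.80%) with D-PDMP. With D-PPMP 3 were higher (7.54%) and 2 lower (5.23%). Tgfb2, the ligand TGF-beta 2, was at 0.89, -0.17 and -0.36, Thbs1, thrombospondin 1, at 0.82, -0.01 and -0.17, and Ccn2, connective tissue growth factor, at 0.76, 0.05 and 0.09. The second probes of Tgfb2 and Thbs1 were at 0.88 and 0.90 with Miglustat.

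**Figure D5:**
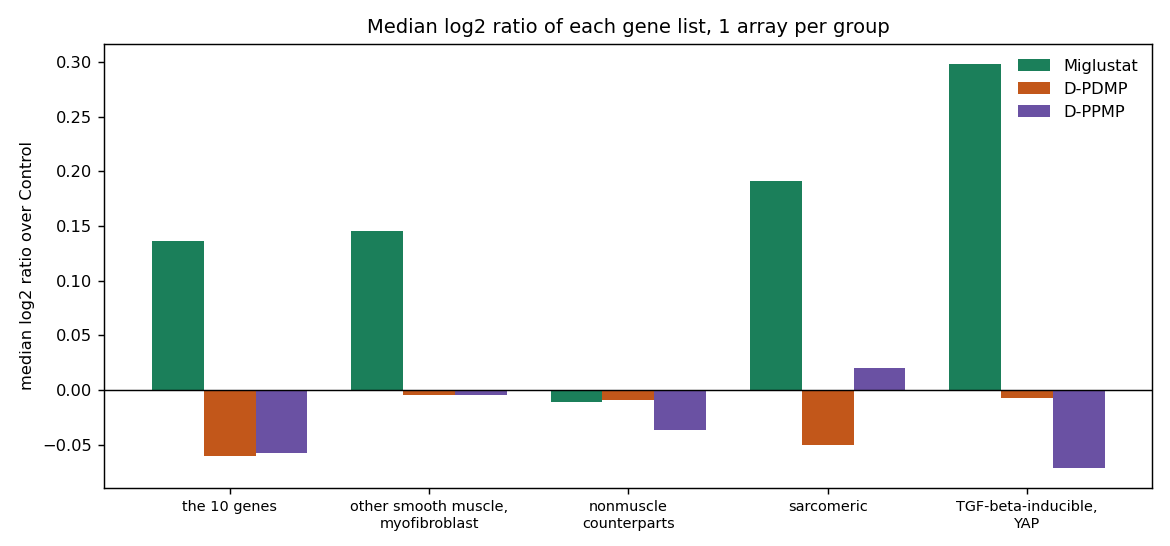
Median log2 ratio over Control (vertical axis, bars from 0) of the 10 genes and of 4 other gene lists (horizontal axis) with Miglustat, D-PDMP and D-PPMP, without error bars since each group is 1 array. With Miglustat the median is 0.14 for the 10 genes and 0.30 for TGF-beta-inducible and YAP genes, and -0.01 for the nonmuscle counterparts.

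The markers of cell types give the setting of these values. Of 12 osteoblast markers 7 to 9 were well above background on each array, Col1a1, Col1a2 and Sparc among the brighter ones, while Alpl, Ibsp and Dmp1 were not well above background on any. Their summed signal, relative to the 75th percentile, was 1444 in Control and lower with each inhibitor, at 1318 on the Miglustat array, 1261 on the D-PDMP array and 1219 on the D-PPMP array. This sum is mostly that of Col1a1, Col1a2 and Sparc. Counted singly, 3 of 7 measured osteoblast markers were above Control with Miglustat, 4 of 8 with D-PDMP and 2 of 8 with D-PPMP. Of all genes, 44.5%, 49.6% and 48.5% were above Control with these inhibitors. The median ratios of the osteoblast markers were -0.003, -0.025 and -0.122. Of 9 defining smooth muscle markers, 7 or 8 were well above background. Their summed signal, 701 in Control and 656 to 769 over the arrays, is mostly that of Acta2 and Tagln, which with Cnn1 are among the 10 genes. The other 6 markers summed to 17.7 in Control and 19.9 with Miglustat, against 15.8 with D-PDMP and 16.0 with D-PPMP. Nearly all of this sum is that of Smtn, so it does not show 6 markers moving together. Smtn, smoothelin, was at 0.16, -0.17 and -0.16 over Control, whereas Lmod1, leiomodin 1, was above Control with all inhibitors, at 0.42, 0.22 and 0.20. Synpo2, an actin-bundling protein, was at 0.12, -0.10 and 0.01. Des, desmin, was at 0.48, 0.62 and 0.35. It was not well above background on the Control array, so these ratios of Des do not count as measured. Myh11, the smooth muscle myosin heavy chain, was dim and at 0.52, 0.09 and -0.13, and Myocd was at background. Of 6 chondrocyte markers 3 or 4 were well above background, and Acan and Col10a1 were not on any array. Their summed signals, mostly that of Col2a1, were 68.2 in Control and 88.6 with Miglustat, against 56.7 with D-PDMP and 53.9 with D-PPMP. Of 7 pericyte markers 4 were well above background on every array, with summed signals from 26.6 to 28.7, the highest in Control, and Rgs5, Kcnj8 and Abcc9 were not on any. Of 11 striated muscle markers 4, 3, 7 and 6 were well above background on the Control, Miglustat, D-PDMP and then D-PPMP array, with summed signals from 0.566 to 0.661, and Myod1, Myog, Ckm and Mb were not on any. Summed signals ran from 24.2 to 26.3 for 6 macrophage markers, 0.760 to 0.868 for 7 adipocyte markers and 0.104 to 0.160 for 6 endothelial markers. The part of other cell types in the values of the 10 genes was not tested.

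The gene of the 10 with the widest range over the arrays was Tnnt2. Among 9575 other genes that were well above background on all arrays and above the median level of such probes, those nearest to it were sought by the Euclidean distance of the 3 ratios over Control. Tnnt2 itself lies below that median level, so genes as dim as Tnnt2 were not among those searched. The nearest were Herc3 (distance 0.35), an E3 ubiquitin ligase, Spp1, osteopontin (0.39), Hmga1, a chromatin protein (0.41), and Apol9b, an apolipoprotein L (0.42). Spp1 was at -0.66, 0.19 and 0.38 and Hmga1 at -0.57, 0.29 and 0.56. For Cnn1, sought in the same way after its values were seen, the nearest were Gadd45g, a growth arrest and DNA damage gene (0.07), Hspb1, the small heat shock protein HSP27 that binds actin (0.11), the collagen chain Col11a1 (0.14) and the aggrecanase Adamts5 (0.16). Hspb1 was at 0.51, -0.40 and -0.58 and Gadd45g at 0.56, -0.38 and -0.57. These distances rest on 4 arrays.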

How the data were processed

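Total RNA of 4 groups, 1 array each, carried the Cy3 dye in a one-colour design, per the labels. Each deposited scanner file gives the intensity of every spot, with background and spatial trend corrected by Agilent Feature Extraction 12.1.1.1, per the file headers. That version also stands in the submitters' processing notes, and the files carry no scaling across arrays. The deposited log2 table of the authors was set against them: for signals over 1, at least 99.99% of its probes lay within 0.02 of log2 processed signal minus the array's 75th percentile. Its scale, centring and direction are therefore known, and its column medians were -4.1, -4.0, -4.0 and -3.89. Control spots and outlier spots (66 to 85 per array) were left out, and spots of a probe were averaged. The 75th percentiles over 56605 probes were signals of 182.5, 190.8, 189.3 and 188.5.

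Of the probes, 32994 (58.3%) were named by accession through a RefSeq table of GRCm38.p6, since the files hold no gene names. The array design names build mm9, so no gene or probe coordinates are given, and the only coordinates printed are those of RefSeq promoter sequence. A gene takes its brightest probe, and counts use genes well above background on both arrays. Limits were log2 ratios of 0.32 and 1 (2-fold) in size. Genes outside the 10 were named by rule: up to 4 of each list past 1.5-fold, or else the 2 farthest from Control, Srf and its coactivators Mrtfa, Mrtfb and Myocd, defining markers, and the 4 genes nearest to the widest member. Members and lists were chosen with earlier results of these data known. The calculation of ratios was checked on simulated levels with known differences. Python 3.11.15, pandas 2.3.3, R 4.3.3 and limma 3.58.1 were used. Alternatives were normexp (offset 50, on median spot signals, since the files hold no mean signal), quantile and cyclic loess normalization, the percentile over bright probes, the authors' table, the mean of probes, outlier spots kept, and a filter on dim genes. A few list genes and 1 further list are not reported here.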

Additional observations from a re-analysis of the deposited data

How the results depend on the processing

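Of the recomputed counts and medians of the 10 genes, 121 stayed within 1.5-fold of the count or within the repeat-spot SD of the median, and 9 did not. The number of genes above Control with D-PDMP, 1 as reported, was 2 under quantile normalization and with the mean of probes, and 0 with only genes above the median level, which leaves Tnnt2 out, or without Tnnt2. With D-PPMP, 2 as reported, it was 5 under quantile and cyclic loess normalization, and 1 in the authors' table, with only genes above the median level, and without Tnnt2. The cause of the shifts under quantile and loess normalization was not tested. The counts with Miglustat and the medians stayed within these limits. Among single genes and lists, 71 values moved by more than the repeat-spot SD and 783 did not, and no ratio past 0.32 in size changed sign. Outlier spots kept changed little. No paired analysis was possible because each group has 1 array without a replicate number. Leaving out an array and the slide as a block could not be run with 1 array per group on 1 slide. Dim probes moved under normexp, among them those of Tnnt2, Itga8 and Fblim1, whose Miglustat ratios became -0.56, 0.68 and -0.34.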

Other observations

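The other cell type markers that were well above background on all arrays did not run one way. Col2a1, the main collagen of cartilage, had levels of 6.05 in Control and 6.43 with Miglustat, then 5.77 with D-PDMP and 5.70 with D-PPMP, ratios of 0.39, -0.28 and -0.35, the order of arrays of the Cnn1 brightest probe. Sox9, a chondrocyte transcription factor, was at -0.03, 0.05 and -0.05, and Comp, a cartilage matrix protein, at 0.25, -0.42 and 0.10. Among osteoblast markers, Sparc, osteonectin, was below Control with all inhibitors, at -0.36, -0.45 and -0.45. Sp7, osterix, was at 0.73, 0.01 and -0.44, and Dlx5, a homeobox factor of osteoblasts, at 0.28, 0.14 and -0.07. Runx2, the early osteoblast factor, was at -0.05, -0.08 and -0.11. The collagen chains Col1a1 and Col1a2 were at 0.00 and 0.03 over Control on the Miglustat array and at -0.13 and -0.18 on the D-PPMP array. Among pericyte markers, Notch3 was at -0.08, -0.41 and -0.36, Cspg4 at -0.06, -0.11 and -0.28, Pdgfrb at -0.07, -0.04 and -0.01, and Higd1b at 0.00, 0.04 and -0.05.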
